A study of Mus musculus with 11 samples.

Results

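The Serpina genes described here are 10 secreted serine protease inhibitors and hormone carriers of the liver, out of 54232 genes in the count tables of hepatocyte RNA-Seq. They were chosen by name, with earlier results of these data known: Serpina1a, Serpina1b, Serpina1c, Serpina1d, Serpina1e, Serpina3k, Serpina3m, Serpina3n, Serpina6 and Serpina10. Hepatocytes were isolated from male adult C57BL/6 mice whose Xbp1 gene is flanked by loxP sites (Xbp1 fl/fl, labelled flox) and from Xbp1 LKO mice (labelled KO), in which Cre driven by the albumin promoter deletes Xbp1 in hepatocytes. Both genotypes received either chow or HFS diet, rich in fat and sugar, with 6 weeks as the longest feeding, which gave 3 Xbp1 fl/fl chow, 2 Xbp1 LKO chow, 3 Xbp1 fl/fl HFS and 3 Xbp1 LKO HFS libraries. A chow library holds RNA of 1 mouse, whereas 2 mice were pooled for every HFS library. The question was what the loss of XBP1 and the diet each did to the transcripts of these inhibitors. All 10 passed the filter on low counts, with 3814 to 323939 counts in a library.

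A serpin traps its protease with an exposed reactive centre loop. The protease cuts the loop at a residue called P1, the loop inserts into the body of the serpin, and the protease is held in a covalent complex, so the residue at P1 largely sets which proteases are caught. Serpina1, which encodes alpha-1-antitrypsin, is one of the most abundant secreted products of hepatocytes and guards tissue against neutrophil elastase. In the mouse the gene has been copied several times. XBP1 is the transcription factor made when IRE1 splices its mRNA in the unfolded protein response, and it drives genes of the endoplasmic reticulum (ER) through which such proteins are folded and secreted.

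All 10 genes lie in the serpin cluster of chromosome 12 (GENCODE M21, GRCm38), each with 5 exons in its main transcript. The 5 Serpina1 copies shared 96.3% to 98.5% of their coding bases over their 10 pairs, Serpina3k, Serpina3m and Serpina3n 82.7% to 91.1%, and a Serpina1 copy and a Serpina3 copy 58.9% to 60.7%. The copies also differ within the loop. The following lines give the coding strand of 57 bases, or 19 codons, in exon 5 of each Serpina1 copy, which encode the loop from its hinge onwards. Capitals mark the 13 bases that are not the same in all 5 copies.
Serpina1a: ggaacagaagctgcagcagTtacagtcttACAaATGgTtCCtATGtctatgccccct
Serpina1b: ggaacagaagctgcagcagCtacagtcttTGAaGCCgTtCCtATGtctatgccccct
Serpina1c: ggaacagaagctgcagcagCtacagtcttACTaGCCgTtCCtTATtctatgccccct
Serpina1d: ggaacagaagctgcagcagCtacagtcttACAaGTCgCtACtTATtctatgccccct
Serpina1e: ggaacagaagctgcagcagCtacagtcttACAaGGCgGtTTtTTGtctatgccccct
The last run of 3 capitals is the codon of P1, codon 377 counted from the start codon. It reads ATG, the methionine codon, in Serpina1a and Serpina1b, TAT, a tyrosine codon, in Serpina1c and Serpina1d, and TTG, a leucine codon, in Serpina1e. The windows lie on the minus strand at chr12:103853774-103853830, chr12:103728341-103728397, chr12:103895111-103895167, chr12:103763779-103763835 and chr12:103947117-103947173, in that order. The matching windows of the Serpina3 copies, on the plus strand, begin alike and differ from each other in their later part. Capitals mark the codon at the same count from the hinge, without a claim that it is P1 there.
Serpina3k: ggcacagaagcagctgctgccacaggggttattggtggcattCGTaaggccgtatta
Serpina3m: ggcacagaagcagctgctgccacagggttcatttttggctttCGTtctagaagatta
Serpina3n: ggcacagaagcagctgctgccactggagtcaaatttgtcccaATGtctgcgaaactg
They lie at chr12:104345269-104345325, chr12:104393769-104393825 and chr12:104413448-104413504. Serpina6 and Serpina10 held no stretch that matched the hinge, and none is shown.

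Near-identity limits what a 50-base read can tell. Of the 50-base stretches in the main transcript, 19.1% occurred in no other gene for Serpina1a, 25.8% for Serpina1c, 49.1% for Serpina1d, 52.9% for Serpina1b and 62.1% for Serpina1e. The share was 80.9% for Serpina3m, 86.0% for Serpina3k, 93.1% for Serpina3n, 98.1% for Serpina10 and 100% for Serpina6. The counts behaved as reads assigned to 1 gene only: of 348 protein-coding genes with no 50-base stretch of their own, 3 had any count, against 14281 of 18136 genes with at least 90% of their stretches to themselves. A copy's count is therefore a measure of its own stretches, comparable between libraries, and levels are compared between copies only per 1000 such positions. The annotated models of Serpina1b and Serpina1d overlap on the same strand, as do those of Serpina3k and Serpina3m, so reads in shared exons of these pairs are uncertain.

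The libraries held 19191032 to 23888401 counts, and pairs of replicates had a chi-square of 27.95 to 101.6 per degree of freedom, where counting error alone gives about 1. Values are CPM, counts for a library of 1000000, scaled by TMM factors, a correction for library composition. Xbp1 checks the genotype: it stood at 194, 200.3 and 221 CPM in the Xbp1 fl/fl chow libraries against 95.7 and 128 in Xbp1 LKO, and at 301, 295 and 242 CPM on HFS diet against 117, 97.3 and 135. It fell in both (log2 fold change -0.87 ± 0.18 SE, edgeR adjusted p = 0.0183 on chow, and -1.26 ± 0.16, adjusted p = 0.0025 on HFS diet). The counts do not tell whether the remaining reads come from the undeleted exons. In the paper, qPCR found exon 2 of Xbp1 nearly gone in hepatocytes of chow-fed Xbp1 LKO mice. Hepatocyte markers (11 of 12 listed symbols found, all tested) summed to 149100 to 188300 CPM in Xbp1 fl/fl chow libraries, 94480 and 54910 in Xbp1 LKO chow, 128500 to 153000 in Xbp1 fl/fl HFS and 75130 to 106700 in Xbp1 LKO HFS libraries. Without Alb the sums were 62340 to 69790, 60220 and 40890, 64140 to 70980, and 42170 to 55250 CPM, in that order. Of these markers Alb fell on chow, described at the end, and Apoa1 fell on HFS diet (-1.45 ± 0.28, adjusted p = 0.0161). On chow Apoa1 stood at -1.20 (adjusted p = 0.0572). DESeq2 called 3 of these markers lower on chow, and 4 lower and 1 higher on HFS diet. Alb and Apoa1 were among the lower ones on both. Macrophage markers (11 of 11 tested) summed to 19.7 to 84.8 CPM in Xbp1 fl/fl chow, 23.0 and 33.8 in Xbp1 LKO chow, 38.4 to 56.0 in Xbp1 fl/fl HFS and 54.6 to 98.2 in Xbp1 LKO HFS libraries. Their median log2 fold change between genotypes was -0.48 on chow, with 10 of 11 negative, and 0.62 on HFS diet, with 11 of 11 positive. Cholangiocyte markers (2 of 6 tested) summed to 3.38 to 16.2 CPM over all libraries. Endothelial markers (9 of 9 tested) summed to 40.2 to 99.3 CPM in Xbp1 fl/fl chow, 31.2 and 25.0 in Xbp1 LKO chow and 66.1 to 132 in HFS libraries. Stellate cell markers (7 of 9 tested) summed to 11.5 to 34.2, to 7.253 and 7.996, and to 20.3 to 50.9 CPM, in that order. None of the markers found was at 0 in all libraries. Of the markers of other cells, edgeR called Sox9 between genotypes, on chow, and DESeq2 also called 6 endothelial and 2 stellate cell markers lower there. Sox9 changed by -1.54 ± 0.31 (adjusted p = 0.0167), and the part of other cells in the results that follow was not tested. The hepatocyte markers did not move as one, with 10 of 11 log2 fold changes negative and 1 positive on each diet. Named after their values were seen, Ahsg stood at -0.12 on chow and -0.07 on HFS diet, and Cyp3a11 at 0.54 and 1.17. Between genotypes the median of the endothelial markers was -1.37 on chow and -0.36 on HFS diet. That of the stellate cell markers was -1.28 and 0.37. In these bulk libraries fewer hepatocytes and less of these marker transcripts per hepatocyte cannot be told apart.

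In chow-fed Xbp1 fl/fl hepatocytes the Serpina1 copies and Serpina3k were far more abundant than the rest. Per 1000 copy-specific positions, Serpina1e stood at 9893 ± 2057 CPM (SD, n = 3), Serpina3k at 7069 ± 1721, Serpina1c at 6412 ± 666, Serpina1b at 6404 ± 383, Serpina1a at 4171 ± 148 and Serpina1d at 3826 ± 244. Serpina3n followed at 374 ± 181, Serpina3m at 304 ± 42.8, Serpina6 at 276 ± 91.6 and Serpina10 at 92.9 ± 32.7. Between neighbours in this order the libraries overlapped except from Serpina1b to Serpina1a, from Serpina1d to Serpina3n and from Serpina6 to Serpina10. Together the 10 genes took 2.65% to 3.35% of all counts in these libraries, and 2.16% and 2.22% in those of Xbp1 LKO mice on chow. On HFS diet they took 2.25% to 3.18% in Xbp1 fl/fl and 1.76% to 2.49% in Xbp1 LKO hepatocytes.

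On chow, 4 Serpina1 copies fell in Xbp1 LKO hepatocytes: Serpina1a, Serpina1b, Serpina1c and Serpina1d, each with a fold of 0.517 to 0.602 of the control level. Fitted on the chow libraries alone, none of the 4 passed (adjusted p = 0.0790, 0.161, 0.206 and 0.212 in that order), while all 4 stayed lower. They were the members called at an adjusted p under 0.05 (edgeR quasi-likelihood test over 13303 genes), 4 of 10, all lower, while 3.02% of all genes were called lower, 1.73% higher and 4.75% in either direction. The 4 are near-identical copies rather than independent genes, and the members were chosen with earlier results of these data known. In 9 of 10 members the log2 fold change was negative, with a median of -0.73 against 0.0024 over all genes. The libraries of the 2 genotypes did not overlap for 7 members, all lower in Xbp1 LKO, beside 15.9% of all genes lower without overlap.

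Serpina1a, with the methionine codon at P1, stood at 1010.0, 1046 and 1084 CPM in Xbp1 fl/fl and at 624 and 459 CPM in Xbp1 LKO chow libraries. Both Xbp1 LKO libraries lay well under the lowest control, and the change was -0.95 ± 0.19 (log2 ± SE, adjusted p = 0.0162). Serpina1b, with the same P1 codon, stood at 4247, 4751 and 4681 CPM against 2951 and 2089 CPM. It changed by -0.86 ± 0.19 (adjusted p = 0.0305), again with no overlap. Serpina1c, with the tyrosine codon, stood at 1913, 2313 and 2294 CPM against 1514 and 919 CPM, a change of -0.84 ± 0.21 (adjusted p = 0.0451). Serpina1d, also with the tyrosine codon, stood at 2347, 2569 and 2660.2 CPM against 1796 and 1246 CPM, a change of -0.73 ± 0.19 (adjusted p = 0.0479). In all 4 the second Xbp1 LKO library was the lower one, and it was also the library with the lowest hepatocyte marker sum (54910 CPM against 94480 in the first, or 40890 against 60220 without Alb).

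Serpina1e, with the leucine codon at P1, had the largest fold difference of the 5 copies on chow and the widest spread of them on HFS diet. It stood at 5907, 8046 and 9019 CPM in the Xbp1 fl/fl chow libraries and at 2563 and 2422 CPM in Xbp1 LKO. The groups were far apart on chow, but the change of -1.62 ± 0.62 did not pass the test (adjusted p = 0.175) in the fit that shares its estimate of spread with the HFS libraries, where this gene varied most. Fitted on the chow libraries alone, its adjusted p was 0.0399, and it was then the member called in that comparison.

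**Figure D1:**
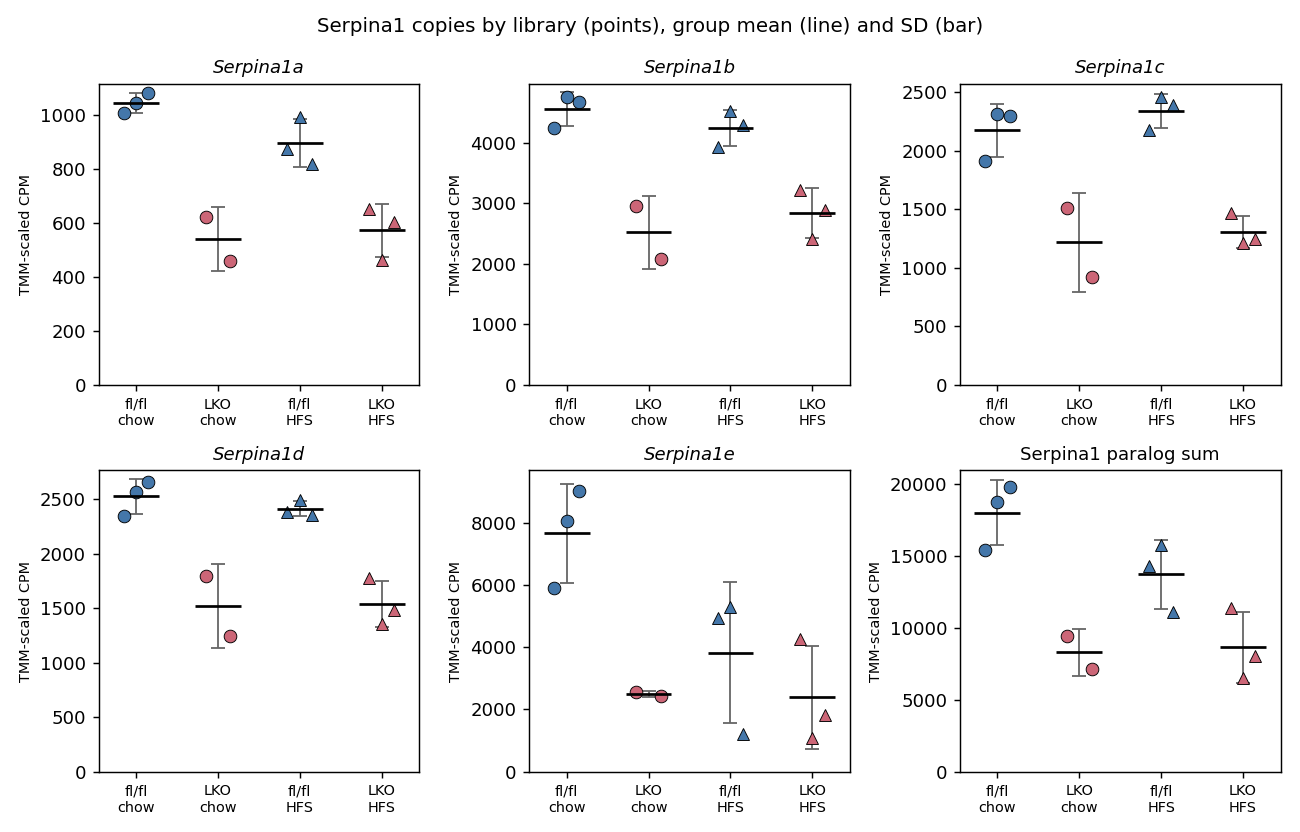
TMM-scaled CPM (linear axes from 0) of the 5 Serpina1 copies and their sum in each of the 11 libraries (points), with the group mean (line) and SD (bar), by genotype and diet. For Serpina1a to Serpina1d all Xbp1 LKO libraries sit below all Xbp1 fl/fl libraries on either diet, while the HFS libraries of Serpina1e spread from 1098 to 5296 CPM.

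The sum of the 5 copies stood at 15424, 18725 and 19738 CPM in Xbp1 fl/fl and at 9448 and 7134 CPM in Xbp1 LKO chow libraries. The sum fell by 1.12 ± 0.27 on the log2 scale (adjusted p = 0.0370). Leaving out 1 library at a time changed how many members were called on chow. None was called without the second Xbp1 LKO chow library, 1 without the second or the third Xbp1 fl/fl chow library or the third Xbp1 fl/fl HFS library, and 2 without the first Xbp1 fl/fl chow library, the first or second Xbp1 fl/fl HFS library or the second or the third Xbp1 LKO HFS library. The sum lost its call without the second or the third Xbp1 fl/fl chow library, the second Xbp1 LKO chow library, the first Xbp1 fl/fl HFS library or the third Xbp1 LKO HFS library (adjusted p up to 0.299).

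The Serpina3 copies and the remaining members did not pass the test on chow. Serpina3k encodes contrapsin, an inhibitor of trypsin-like proteases. It stood at 11564, 9602 and 15439 CPM in Xbp1 fl/fl and at 9372 and 9491 CPM in Xbp1 LKO, a difference of -0.37 ± 0.24 (adjusted p = 0.439), with the Xbp1 LKO libraries just under the lowest control. Serpina3m, its close relative, stood at 455, 385 and 345 CPM against 271 and 207 CPM, without overlap, a difference of -0.73 ± 0.21 (adjusted p = 0.0777). Serpina3n, an acute phase inhibitor related to human alpha-1-antichymotrypsin that blocks granzyme B, stood at 1044, 698 and 364 CPM against 453 and 626 CPM. Its groups overlapped, and the difference of -0.38 ± 0.43 was within the spread (adjusted p = 0.690).

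Serpina6 encodes corticosteroid-binding globulin, a carrier rather than an inhibitor. It was the member with a positive difference: 300.2, 582 and 404 CPM in Xbp1 fl/fl and 649 and 343 CPM in Xbp1 LKO chow libraries, 0.21 ± 0.29 (adjusted p = 0.755), with overlap. Serpina10, the protein Z-dependent inhibitor of coagulation factor Xa, stood at 442, 238 and 263 CPM against 219 and 306 CPM, -0.26 ± 0.33 (adjusted p = 0.723). Both directions turned when single libraries were left out. The Serpina6 difference was -0.32 without the first Xbp1 LKO chow library, and that of Serpina10 was 0.06 without the first Xbp1 fl/fl chow library, where that of Serpina3n was 0.02.

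**Figure D2:**
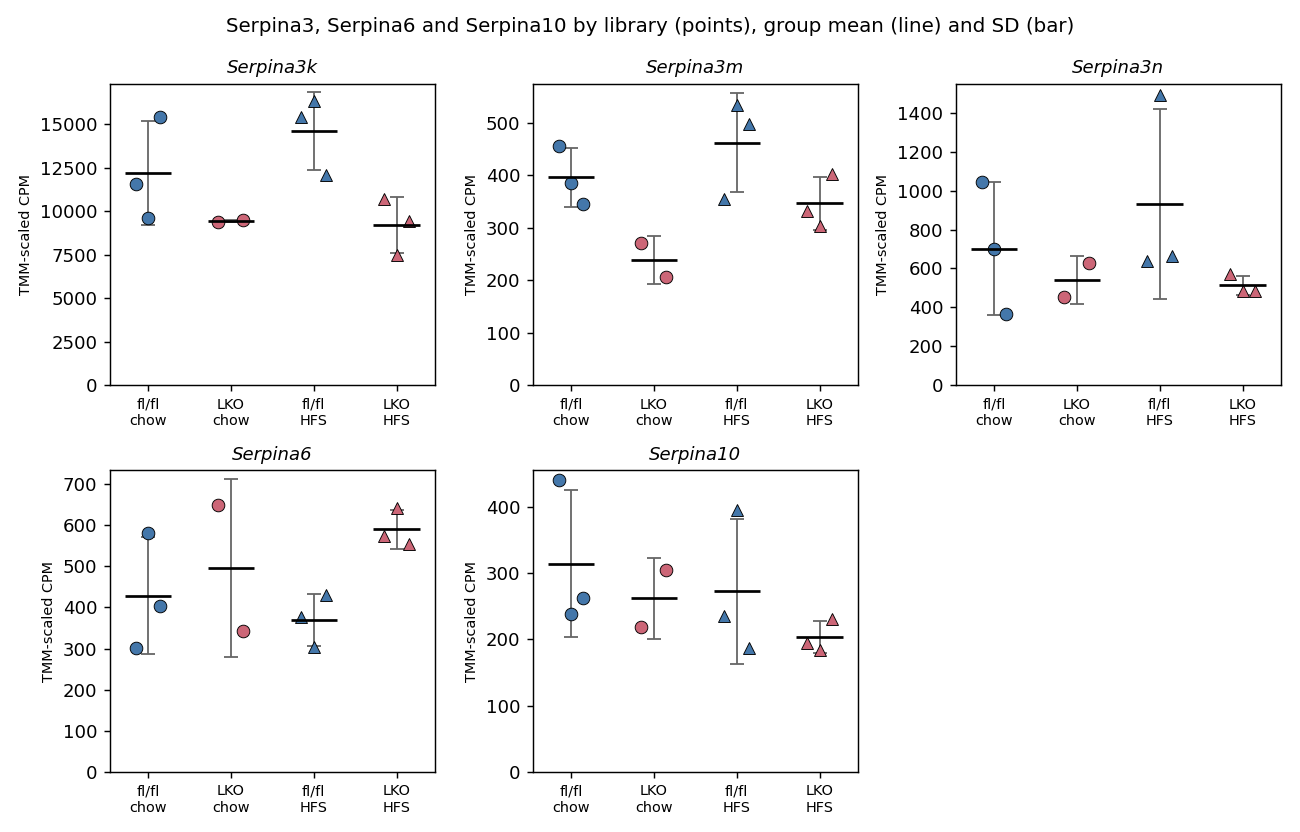
TMM-scaled CPM (linear axes from 0) of Serpina3k, Serpina3m, Serpina3n, Serpina6 and Serpina10 in each library (points), with the group mean (line) and SD (bar). Serpina3n and Serpina10 each have 1 high Xbp1 fl/fl library per diet, and on HFS diet the 3 Xbp1 LKO libraries of Serpina6 lie between 554 and 643 CPM, above the 3 controls.

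On HFS diet the values of Serpina1a to Serpina1d were again lower in Xbp1 LKO hepatocytes, and 1 of the 4 copies passed the test. Serpina1c fell by 44.1%, and 1 of 10 members was called, beside 2.16% of all genes called lower, 1.92% higher and 4.08% in either direction. In 9 of 10 members the log2 fold change was negative, with a median of -0.65 against 0.0083 over all genes. Without overlap between genotypes, 6 members were lower (12.5% of all genes) and 1, Serpina6, was higher (13.6% of all genes).

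Serpina1c stood at 2178, 2459.7 and 2386 CPM in the Xbp1 fl/fl HFS libraries and at 1466, 1215 and 1244 CPM in Xbp1 LKO, a change of -0.84 ± 0.19 (adjusted p = 0.0299). Serpina1d stood at 2385, 2490.4 and 2359 CPM against 1773, 1353 and 1488 CPM, -0.65 ± 0.16 (adjusted p = 0.0509). Serpina1a stood at 875, 993 and 819 CPM against 653, 464 and 604 CPM, -0.64 ± 0.16 (adjusted p = 0.0519). These and Serpina1b shared the order seen on chow, with each Xbp1 LKO library under each control. Serpina1b stood at 3933, 4518 and 4289 CPM against 3226, 2412 and 2895 CPM, -0.58 ± 0.17 (adjusted p = 0.0850).

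Serpina1e did not separate the genotypes on HFS diet. It stood at 4945, 5296 and 1221 CPM in Xbp1 fl/fl and at 4251, 1098 and 1824 CPM in Xbp1 LKO, -0.68 ± 0.53 (adjusted p = 0.583). The third Xbp1 fl/fl library lay in the range of the 2 low Xbp1 LKO libraries, and the first Xbp1 LKO library near the 2 high controls. The highest library exceeded the lowest 4.34 times in Xbp1 fl/fl and 3.87 times in Xbp1 LKO, against 1.06 and 1.31 times for Serpina1d. The other 4 copies in the same libraries gave no such exchange.

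The sum of the 5 copies on HFS diet was 14316, 15757 and 11075 CPM in Xbp1 fl/fl and 11369, 6542 and 8055 CPM in Xbp1 LKO, with 1 control below 1 Xbp1 LKO library and a difference of -0.66 ± 0.23 (adjusted p = 0.148). The number of members called on HFS diet also moved with single libraries. It was 0 without any 1 of the 3 Xbp1 fl/fl HFS libraries or without the second or the third Xbp1 LKO HFS library, 2 without the first Xbp1 LKO HFS library, and 4 without either Xbp1 LKO chow library. DESeq2 called 5 members on each diet, Serpina1a to Serpina1d on both, with Serpina3m on chow and Serpina3k on HFS diet.

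**Figure D3:**
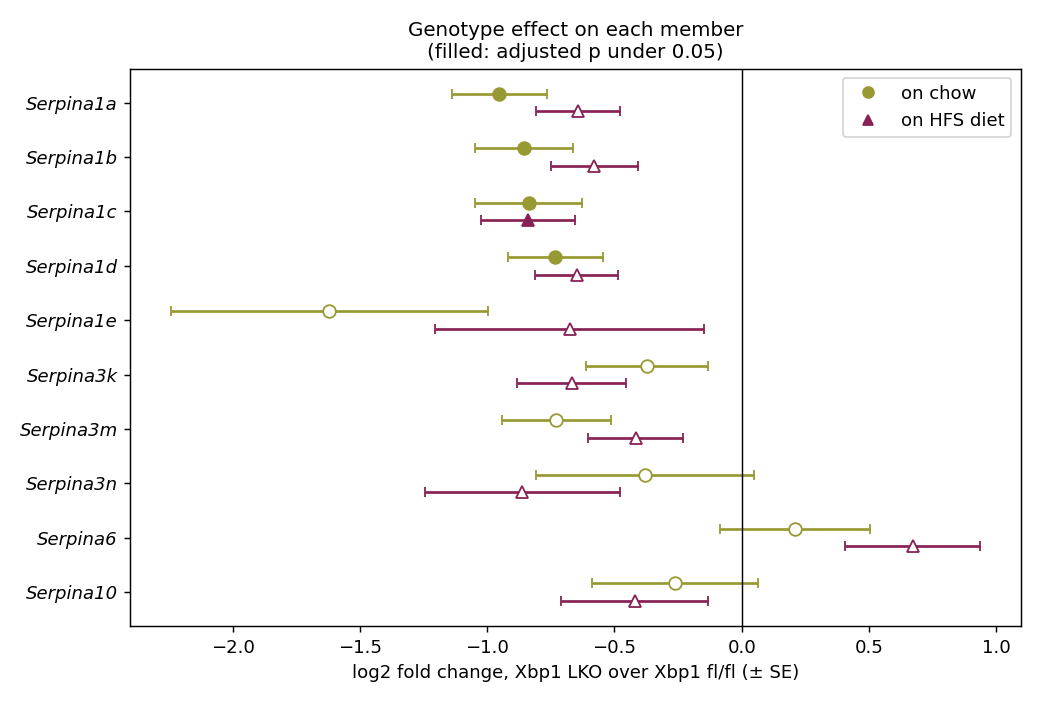
Log2 fold change (x axis) of Xbp1 LKO over Xbp1 fl/fl with its SE (bars) for each member on chow (circles) and on HFS diet (triangles), filled where the adjusted p was under 0.05. The 5 filled symbols all belong to Serpina1a to Serpina1d, and Serpina6 lies to the right of 0 on both diets.

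Among the Serpina3 copies on HFS diet, Serpina3k stood at 15429.5, 16345 and 12079 CPM in Xbp1 fl/fl and at 10681, 7501 and 9419 CPM in Xbp1 LKO. The groups did not overlap, and the difference was -0.67 ± 0.21 (adjusted p = 0.113). Serpina3m stood at 355, 534 and 497 CPM against 332, 304 and 403 CPM, with overlap, -0.42 ± 0.19 (adjusted p = 0.278). Serpina3n stood at 638, 1494 and 662 CPM against 569, 486 and 483 CPM, without overlap but with 1 high control, -0.86 ± 0.38 (adjusted p = 0.271). The sum over 11 Serpina3 genes, of which Serpina3k made up most, differed by -0.67 ± 0.20 on HFS diet (adjusted p = 0.0973) and by -0.38 ± 0.23 on chow (adjusted p = 0.403).

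Serpina6 on HFS diet stood at 376, 304 and 431 CPM in Xbp1 fl/fl and at 573, 643 and 554 CPM in Xbp1 LKO. Each Xbp1 LKO library was above each control, and the difference of 0.67 ± 0.27 did not pass the test (adjusted p = 0.212). It passed when the HFS libraries were fitted alone (adjusted p = 0.0346). Serpina10 stood at 235, 396 and 187 CPM against 195, 185 and 231 CPM, with overlap, -0.42 ± 0.29 (adjusted p = 0.526).

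The HFS diet itself changed no member at the adjusted threshold in either genotype. In Xbp1 fl/fl hepatocytes 0 of 10 members were called, beside 0.428% of all genes, with 0 members at an unadjusted p under 0.05 and 0 by DESeq2. The largest difference among members was that of Serpina1e, -1.003 ± 0.53 (adjusted p = 0.645), whose 3 HFS libraries were all below the 3 chow libraries given above. Serpina1a was also lower in every HFS library, with a difference of -0.22 ± 0.16 (adjusted p = 0.782), and 7.34% of all genes were lower without overlap. In Xbp1 LKO hepatocytes 0 of 10 were called, beside 0.0601% of all genes, and DESeq2 called 0. There Serpina3m reached an unadjusted p of 0.0270, at 271 and 207 CPM on chow and 332, 304 and 403 CPM on HFS diet, 0.54 ± 0.21 (adjusted p = 0.327). Its libraries did not overlap, as in 16.7% of all genes in that direction.

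No member passed the test of whether the genotype effect differed between diets, and none of the 13303 genes did by edgeR (816 had an unadjusted p under 0.05, none of them a member). DESeq2 called 31 genes there, again no member. The difference of the effects was 0.94 ± 0.80 for Serpina1e (adjusted p = 0.903), 0.31 ± 0.25 for Serpina1a (adjusted p = 0.890) and -0.0022 ± 0.28 for Serpina1c (adjusted p = 0.999). The Serpina1c change was -0.84 on both diets, and the estimate for Serpina1e was the least precise of the 10.

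The makeup of the Serpina1 reads restates the values above as shares and is no separate evidence. Serpina1e supplied 38.3%, 43.0% and 45.7% of the reads assigned to the 5 copies in the Xbp1 fl/fl chow libraries and 27.1% and 34.0% in Xbp1 LKO. On HFS diet it supplied 34.5%, 33.6% and 11.03% in Xbp1 fl/fl and 37.4%, 16.8% and 22.6% in Xbp1 LKO. Set against the sum of the other 4 copies, Serpina1e stood at a ratio of 0.621 to 0.841 in the Xbp1 fl/fl chow libraries. The ratio was 0.372 and 0.514 in Xbp1 LKO chow libraries. On HFS diet it was 0.528, 0.506 and 0.124 in Xbp1 fl/fl and 0.597, 0.202 and 0.293 in Xbp1 LKO. These are shares of reads that fall on copy-specific stretches, so they follow Serpina1e between libraries but are not the true proportions of the transcripts.

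**Figure D4:**
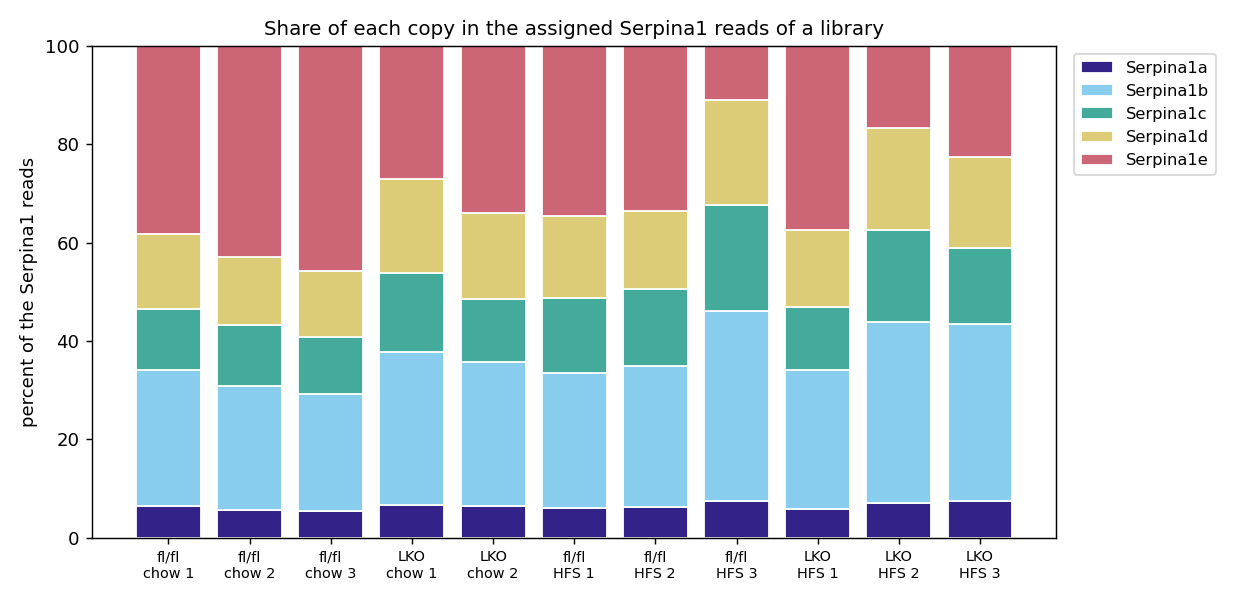
Percent of the reads assigned to the 5 Serpina1 copies (y axis) that fell on each copy, 1 stacked bar per library. The Serpina1e part runs from 11.03% in the third Xbp1 fl/fl HFS library to 45.7% in the third Xbp1 fl/fl chow library, while of the other 4 copies Serpina1b has the largest and Serpina1a the smallest part in every bar.

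The libraries with the most Serpina3n and Serpina10 were those with the most acute phase transcripts. Acute phase proteins are plasma proteins such as serum amyloid A and haptoglobin that hepatocytes make on cytokine signals. Over 20 listed genes they summed to 65610 CPM in the first Xbp1 fl/fl chow library and 66760 CPM in the second Xbp1 fl/fl HFS library, and to 16660 to 34270 CPM in the other 9. Those 2 libraries also held the highest values of Serpina3n (1044 and 1494 CPM) and of Serpina10 (442 and 396 CPM). Of the remaining members, only Serpina3m was at its highest of each diet in both (455 and 534 CPM). Serpina1b in the same 2 libraries, at 4247 and 4518 CPM, lay within the range of the other controls. Of 19 acute phase genes tested, 0 were called by edgeR between genotypes on either diet, 3 and 4 had an unadjusted p under 0.05, all lower, and DESeq2 called 2 and 4, with a median log2 fold change of 0.04 on chow and -1.05 on HFS diet. The part of this library difference in the Serpina3n and Serpina10 values was not tested.

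**Figure D5:**
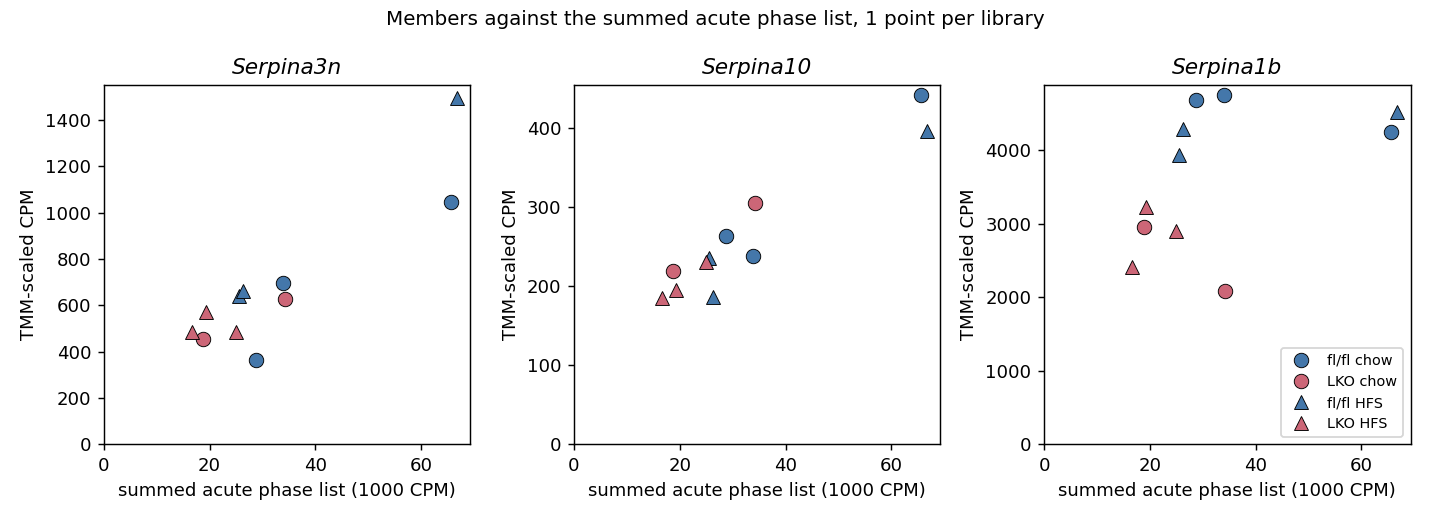
TMM-scaled CPM (y axes) of Serpina3n, Serpina10 and Serpina1b against the summed CPM of the acute phase list (x axis, in 1000 CPM), 1 point per library. The 2 Xbp1 fl/fl libraries near 66 on the x axis hold the highest Serpina3n and Serpina10 values, while Serpina1b separates by genotype.

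RefSeq promoter windows of 300 bases (250 before and 50 after the annotated start, GRCm38.p6) were given for 6 members, the 5 Serpina1 copies and Serpina3n, and were searched on both strands. The core ACGTGG bound by XBP1 and ATF6 was in none of the 6 member windows and in 8.31% of all promoters, and the CCACG part of the ER stress element was in none and in 32.8%. The C/EBP pattern TTGCNNAA was in Serpina1b, Serpina1d and Serpina1e, at -161, -149 and -211 from the annotated start. Serpina1a held it at another place, at 24, after the start. It was in 10.8% of all promoters. The STAT pattern TTCCNNGAA (4.81% of all), the HNF4 site CAAAGTCC (1.42%) and TATAAA (13.6%) were in no member window. These are not all the motifs searched, and a missing match says only that these letters are not in the window.

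Transcripts of factors known to act on these genes did not pass the edgeR test. Of 19 transcription factors and cytokine receptors, 0 were called on either diet, with median log2 fold changes of 0.14 on chow and -0.16 on HFS diet. At an unadjusted p under 0.05, 4 were higher and 1 lower on chow and 3 were lower on HFS diet. DESeq2 called 0 on chow and 1, Il1r1, lower on HFS diet. Among those with an unadjusted p under 0.05, Cebpb stood at 0.63 ± 0.26 on chow (adjusted p = 0.198) and -0.51 ± 0.23 on HFS diet (adjusted p = 0.283), Socs3 at 1.72 ± 0.64 on chow (adjusted p = 0.162), and Foxa1 and Foxa2 at 0.45 ± 0.17 and 0.45 ± 0.19 on chow (adjusted p = 0.161 and 0.209), all named after their values were seen. The others were Ghr, lower on chow, and Il1r1 and Il6ra, lower on HFS diet.

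Among 16 other Serpina genes listed, 9 were tested, and 12 stayed under 5 CPM in every library. Serpina7, which encodes thyroxine-binding globulin, went opposite to the Serpina1 copies. It stood at 92.1, 16.9 and 43.5 CPM in Xbp1 fl/fl and 285 and 691 CPM in Xbp1 LKO chow libraries, and at 45.6, 73.8 and 43.9 against 599, 953 and 939 CPM on HFS diet. It rose on both diets, by 3.26 ± 0.57 (adjusted p = 0.00979) and 3.93 ± 0.56 (adjusted p = 0.00367). Serpina12, which encodes the adipokine vaspin, fell on chow from 23.6, 33.6 and 62.4 CPM to 4.82 and 10.9 CPM (-2.35 ± 0.46, adjusted p = 0.0158). On HFS diet Serpina12 stood at 44.7 to 77.8 CPM in Xbp1 fl/fl and 48.5 to 77.4 in Xbp1 LKO (adjusted p = 0.968). DESeq2 called Serpina12 for a genotype effect that differed between diets, and as higher on HFS diet than on chow in Xbp1 LKO. By edgeR neither was called. Serpina11 fell on HFS diet (-0.72 ± 0.14, adjusted p = 0.0177) and stood at -0.55 on chow (adjusted p = 0.0789), and DESeq2 called it on both. The list's median was -0.15 on chow and -0.34 on HFS diet.

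Of 13 tested serpins of other clades, 1 was higher and 1 lower on chow, with a median of -0.55. Serpind1, or heparin cofactor II, fell on chow (-0.71 ± 0.17, adjusted p = 0.0372), where Serpine2, or protease nexin 1, rose (1.76 ± 0.44, adjusted p = 0.0457).

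Among 11 tested proteases and partners of the serpins, 2 fell on chow and 5 on HFS diet, and none rose, with medians of -0.53 and -0.62. Proc, the precursor of the anticoagulant protein C, fell on both diets (-1.43 ± 0.23, adjusted p = 0.00603 on chow, and -1.53 ± 0.20, adjusted p = 0.00254 on HFS diet). F2, or prothrombin, also fell on both (-0.86 ± 0.18, adjusted p = 0.0236, and -0.93 ± 0.16, adjusted p = 0.00995). F10, Plg and Proz fell on HFS diet, with log2 fold changes of -0.61, -0.69 and -0.62. On chow these stood at -0.60, -0.53 and -0.60 without passing (adjusted p = 0.0568, 0.152 and 0.0765). DESeq2 called 6 genes of the list lower on each diet, F10, Plg and Proz among them on both. F10 and Proz encode coagulation factor X and protein Z, the target and the cofactor of the Serpina10 product, which itself did not pass the test.

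Of 28 tested genes for folding, export and disposal of alpha-1-antitrypsin in the ER, 3 fell on chow and 4 on HFS diet and none rose, with medians of -0.12 and -0.25. At an unadjusted p under 0.05, 1 was higher and 10 lower on chow, and 0 and 10 on HFS diet. The list summed to 6235 CPM in the first and 12020 in the second Xbp1 LKO chow library, and to 6212 to 8712 CPM in the other libraries. Edem1 and Edem2, which help trim mannose from misfolded glycoproteins bound for disposal, fell on both diets. Edem1 changed by -0.74 ± 0.16 (adjusted p = 0.0222) on chow and -0.83 ± 0.14 (adjusted p = 0.00797) on HFS diet, and Edem2 by -1.01 ± 0.19 (adjusted p = 0.0127) and -0.76 ± 0.16 (adjusted p = 0.0270). Surf4, a cargo receptor for export, fell on chow (-0.57 ± 0.14, adjusted p = 0.0449) and stood at -0.50 on HFS diet (adjusted p = 0.0519). Os9, a lectin of disposal, and Uggt1, the folding sensor that reglucosylates glycoproteins, fell on HFS diet (-0.69 ± 0.14, adjusted p = 0.0247, and -0.90 ± 0.20, adjusted p = 0.0320). On chow Os9 and Uggt1 stood at -0.47 and -0.81 (adjusted p = 0.136 and 0.0709). DESeq2 called 7 genes of the list lower and 0 higher on each diet, Surf4 and Uggt1 on both and Os9 on HFS diet.

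Albumin gives a scale for these changes, being the most abundant plasma protein from hepatocytes. Alb stood at 86732, 113601 and 119367 CPM in Xbp1 fl/fl and at 34259 and 14021 CPM in Xbp1 LKO chow libraries. It fell by 2.14 ± 0.38 on the log2 scale (adjusted p = 0.0107), beside log2 fold changes of -0.73 to -0.95 for Serpina1a to Serpina1d. On HFS diet Alb stood at 71454, 64343 and 82040.2 CPM against 51478, 29578 and 38973 CPM (-0.86 ± 0.32, adjusted p = 0.178). DESeq2 called Alb lower on both diets. Alb too was lowest in the second Xbp1 LKO chow library.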

How the data were processed

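RNA-Seq of isolated hepatocytes was analysed in 11 libraries from 50 bp single-end reads. Per Ensembl gene, the authors deposited raw counts as whole numbers, with mm10 as the build. Their notes name cutadapt 1.13, STAR and HTSeq 0.6.1p1, and their paper kallisto, and the counts behaved as uniquely assigned reads. Of 54232 gene identifiers, 54165 were matched to GENCODE M21. The second Xbp1 LKO chow library was numbered by its title.

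In edgeR 4.0.16 (R 4.3.3), genes were kept by filterByExpr with a minimum count of 10, which left 13303, and TMM factors scaled the CPM. All 11 libraries entered 1 quasi-likelihood fit with a mean for each of the 4 groups. P-values were adjusted by Benjamini-Hochberg over all genes, with a threshold of 0.05. SE is the size of the log2 fold change divided by the square root of F. Paralog sums were fitted in place of their copies. Alternatives were DESeq2 1.42.0, RLE size factors, library totals, no filter, only the groups compared, replicate blocks and each library left out. The code was tested on simulated counts. Copy-specific 50-base stretches were counted over all GENCODE M21 transcripts. Replicates are separate samples in the labels. All 10 members are described, and of each list at most 5 genes that passed the test in a genotype comparison, with Xbp1 and Alb, and a gene named beyond these is said to have been chosen after its values were seen. Members and lists were chosen with earlier results of these data known. Results for some items are not reported here.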

Additional observations from a re-analysis of the deposited data

How the results depend on the processing

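Serpina1a to Serpina1e stayed lower in Xbp1 LKO on both diets in 180 of 180 values over all alternatives, while the number passing the test moved. These values are refits of the same libraries and are not independent. For Serpina1a to Serpina1d the genotypes did not overlap on either diet, so their sign had little room to turn. On chow the number passing was 4, and 5 by DESeq2, 2 with library totals and 1 with only the groups compared. It was 1 with the replicate block (by either numbering of the second Xbp1 LKO chow library). Over all settings other than leaving a library out, the most was 6. With 1 library left out the number moved as given above. On HFS diet it was 1, and 2 with library totals, 7 without a filter on low counts, 0 with the replicate block (either numbering), 5 by DESeq2, 4 with only the groups compared, and 0 to 4 with 1 library left out. The filter also decided HFS against chow in Xbp1 fl/fl, where 1 member, Serpina1e, was called without it. The cause was not tested. Library totals moved the median of all genes by 0.33 on chow and 0.27 on HFS diet, against 0.0024 and 0.0083, and 2685 of 3000 calls on chow were then higher, against 230 of 632. All 5 Serpina1 copies were lower under it before this shift was taken off. The Serpina1 sum on chow lost its call with the replicate block (-1.18, adjusted p = 0.0658, or -1.15 with the second library numbered 3) and with only the groups compared (-1.12), and ranged from -1.33 to -0.93 with 1 library left out. On HFS diet it passed without a filter (-0.65) and by DESeq2 (-0.67), as did the Serpina3 sum (-0.66 and -0.68).

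The directions that turned were those of differences that did not pass the test. On chow the genotype difference of Serpina10 was 0.0706 with library totals. With 1 library left out it ranged from -0.52 to 0.0641, that of Serpina3n from -0.69 to 0.0223 and that of Serpina6 from -0.32 to 0.60. For the diet in Xbp1 LKO, Serpina1d turned with library totals (-0.029), Serpina1e and Serpina3n with the replicate block (0.0544 and 0.19), and Serpina3k and the Serpina3 sum with the block that numbers the second library 3 (0.0238 and 0.0262). With 1 library left out these ranged as follows: the Serpina1 sum from -0.18 to 0.28, the Serpina3 sum from -0.13 to 0.10, Serpina1a from -0.11 to 0.32, Serpina1b from -0.045 to 0.44, Serpina1c from -0.20 to 0.51, Serpina1d from -0.22 to 0.30, Serpina1e from -0.77 to 0.29, Serpina3k from -0.15 to 0.0926, Serpina3n from -0.29 to 0.19 and Serpina6 from -0.13 to 0.78. For the diet in Xbp1 fl/fl, Serpina3n ranged from -0.11 to 0.81, Serpina6 from -0.41 to 0.0727 and Serpina10 from -0.58 to 0.12. For the interaction, Serpina1c was 0.0062 and 0.0042 with the 2 blocks and from -0.32 to 0.40 with 1 library left out, Serpina1d from -0.15 to 0.37, Serpina3n from -0.88 to 0.038 and Serpina10 from -0.48 to 0.21.

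Same-numbered libraries did not deviate together (mean r -0.0087 over 15 pairs, range -0.20 to 0.23), so the numbers were not taken as pairs, and the numbering by 3 was chosen after seeing the data. With 1 Xbp1 LKO chow library left out, the lone one is assumed to vary like the other groups. Depth did not limit any member. The limits are 2 to 3 libraries a group, and, for Serpina1a and Serpina1c, 251 and 339 copy-specific positions.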
